A study of Mus musculus with 2 samples.

Results

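The genes of cholesterol synthesis and of fatty acid synthesis were compared between the colons of Villin-Cre control mice and of Villin-Cre; EP4flox/flox mice (EP4 cKO). The 35 genes were chosen by name from the pathways: 18 enzymes of sterol synthesis, 6 regulators of that pathway and 11 genes of fatty acid synthesis. 34 of them had a probe whose RefSeq accession carried the gene's name, out of 22909 genes named on the array, and Acat2, which encodes the enzyme that joins acetyl-CoA units at the start of the sterol pathway, had none and has no value here.

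Both genotypes were on the C57BL/6 strain, both carried Cre recombinase under the Villin promoter, which is active in the intestinal epithelium, and the study used mice of 8 weeks of age. EP4 cKO mice additionally carried floxed alleles of Ptger4, the gene of the prostaglandin E2 receptor EP4, which Cre removes in the epithelium only, while the stroma, muscle and blood cells of the whole colon keep the gene. Total RNA of whole colon was labelled with Cy3 and read on 1-colour Agilent arrays, 1 array per genotype. According to the labels, 3 pools of colon were combined for each, so the spread between mice cannot be seen, no test was possible and each value describes these arrays alone.

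The study asked how the expression profile of the colon differs between these genotypes. Ptger4 itself gave normalized signals of 6227 with the RNA labelled Villin-Cre and 5661 with the RNA labelled EP4 cKO (log2 ratio -0.14), so the targeted gene did not separate the arrays, and the files do not say whether its probe lies in the deleted part. Genotypes are therefore named as the arrays are labelled, and "higher" and "lower" refer to the array labelled EP4 cKO relative to the array labelled Villin-Cre. The 7 epithelial markers fixed for the analysis were all well above background on both arrays. So were 4 of 6 smooth muscle and 4 of 7 leukocyte markers. Counts were 3 of 7 for glia and neurons, 2 of 4 for endothelium, 2 of 6 for fibroblasts and 1 of 8 for adipocytes.

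Cholesterol is built from acetyl-CoA. Its units are condensed to mevalonate, activated isoprenoids are made from it, these are joined to squalene, squalene is closed to lanosterol, and lanosterol is trimmed and reduced to cholesterol. Most enzymes of this route sit in the endoplasmic reticulum and are transcribed together under the transcription factor SREBP2, which leaves that membrane with its escort SCAP when sterols are scarce and is held there by INSIG proteins when they are abundant. Fatty acid synthesis starts from the same acetyl-CoA, is driven mainly by SREBP1 and further factors, and supplies membranes and stored fat, and the colonic epithelium, which is renewed throughout life, needs both products for its membranes.

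SREBP acts at promoters together with NF-Y, which binds CCAAT, and Sp1, which binds GC boxes, so the promoters of the members were searched for these letters as a description of what the members share apart from their signals. RefSeq promoter windows (GRCm38.p6), which run from 250 bases before to 50 after a transcription start, were at hand for 28 of the 35 members, 38 windows in all. CCAAT, read on either strand, lay in a window of 14 of 15 sterol enzymes (93.3%), against 41.1% of 27025 genes. Acat2 was the sterol enzyme without it. Counted by windows, because some genes have several, the shares were 77.8% of 18 windows and 37.4% of 32851 windows. Of the regulators, 4 of 5 genes had it (80.0%), and of the fatty acid genes 5 of 8 (62.5%), Acaca, Elovl6 and Fads2 being without it.

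The GC box GGGCGG, also searched on both strands, lay in 14 of 15 sterol enzymes, in 5 of 5 regulators and in 4 of 8 fatty acid genes, against 38.2% of all genes. The letters TCACNCCAC, a short form of the sterol regulatory element, were found in Hmgcs1 alone of the members with a window, and in 1.44% of all genes. The E-box CACGTG was present in 3 of 15 sterol enzymes (20.0%), 2 of 5 regulators (40.0%), 1 of 8 fatty acid genes (12.5%) and 8.09% of all genes. These are matches of letters in a short window, and a window without them says nothing about binding of the factor.

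The 150 bases before the start are printed for 8 members, because they show that sterol enzymes with higher and with lower signal carried the same letters close to the start. Each is written 5′ to 3′ with respect to the gene, and capitals mark CCAAT or its reverse complement ATTGG and, in Hmgcs1, the sterol regulatory element. The first 4 belong to sterol enzymes with higher signal, the next 3 to the sterol enzymes with lower signal and the last to Fasn of the fatty acid pathway. For Dhcr7, which has 3 windows, the only one with CCAAT is shown.
Hmgcs1, chr13:119690201-119690350, plus strand: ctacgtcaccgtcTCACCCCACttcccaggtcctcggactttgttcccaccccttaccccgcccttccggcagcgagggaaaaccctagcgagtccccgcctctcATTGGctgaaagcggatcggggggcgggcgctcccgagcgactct
Idi1, chr13:8885456-8885605, plus strand: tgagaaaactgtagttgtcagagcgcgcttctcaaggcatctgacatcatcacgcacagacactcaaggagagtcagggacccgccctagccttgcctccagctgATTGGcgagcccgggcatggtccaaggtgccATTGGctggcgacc
Lss, chr10:76531455-76531604, plus strand: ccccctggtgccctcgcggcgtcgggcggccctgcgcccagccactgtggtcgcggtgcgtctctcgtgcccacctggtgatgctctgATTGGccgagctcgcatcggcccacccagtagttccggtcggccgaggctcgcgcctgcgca
Msmo1, chr8:64733579-64733728, minus strand: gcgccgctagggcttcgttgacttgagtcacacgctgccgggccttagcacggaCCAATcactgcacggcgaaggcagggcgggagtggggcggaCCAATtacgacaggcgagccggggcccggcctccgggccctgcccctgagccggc
Tm7sf2, chr19:6067851-6068000, minus strand: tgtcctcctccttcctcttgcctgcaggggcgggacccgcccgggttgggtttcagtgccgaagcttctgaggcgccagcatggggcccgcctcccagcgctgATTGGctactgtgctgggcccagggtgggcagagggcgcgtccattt
Ebp, chrX:8193513-8193662, minus strand: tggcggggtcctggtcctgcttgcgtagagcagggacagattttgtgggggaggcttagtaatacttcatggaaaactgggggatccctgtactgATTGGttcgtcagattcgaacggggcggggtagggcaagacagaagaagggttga
Dhcr7, chr7:143830064-143830213, plus strand: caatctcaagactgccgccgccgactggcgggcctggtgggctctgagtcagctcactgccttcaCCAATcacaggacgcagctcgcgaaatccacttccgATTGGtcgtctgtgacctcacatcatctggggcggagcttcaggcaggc
Fasn, chr11:120824548-120824697, minus strand: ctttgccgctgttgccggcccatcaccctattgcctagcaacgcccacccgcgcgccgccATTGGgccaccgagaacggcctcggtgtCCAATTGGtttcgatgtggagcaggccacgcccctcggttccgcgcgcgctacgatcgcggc
In Hmgcs1 the sterol regulatory element began 137 bases and ATTGG 45 bases before the start. Idi1 held ATTGG at 45 and 14 bases before the start and Lss at 62. Msmo1 held CCAAT at 96 and 55. The enzymes with lower signal held them at like distances, at 47 bases in Tm7sf2, at 55 in Ebp, and at 85 and 49 in Dhcr7, and Fasn held 3 matches at 90, 62 and 59, of which the last pair overlap.

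Sterol enzymes were mostly higher in the colon RNA labelled EP4 cKO, whereas fatty acid genes were divided. Signals were scaled so that the mean of the gene probes, without the lowest and highest 2%, was 2500 on each array, and the brightest probe stood for a gene. The median log2 ratio was 0.57 over the 17 measured sterol enzymes, 0.12 over the 6 regulators and 0.03 over the 11 fatty acid genes, against -0.10 over all 14679 genes with a value. 14 of 17 sterol enzymes (82.4%) and 6 of 11 fatty acid genes (54.5%) had a log2 ratio above 0, against 36.3% of all genes. The share of all genes includes dim genes, whose ratios ran lower, and genes with a bound set to 0, so it is not matched in signal. The sterol median thus stood 0.67 above the median of all genes and the fatty acid median 0.13 above it, a difference of 0.54 between the pathways.

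**Figure D1:**
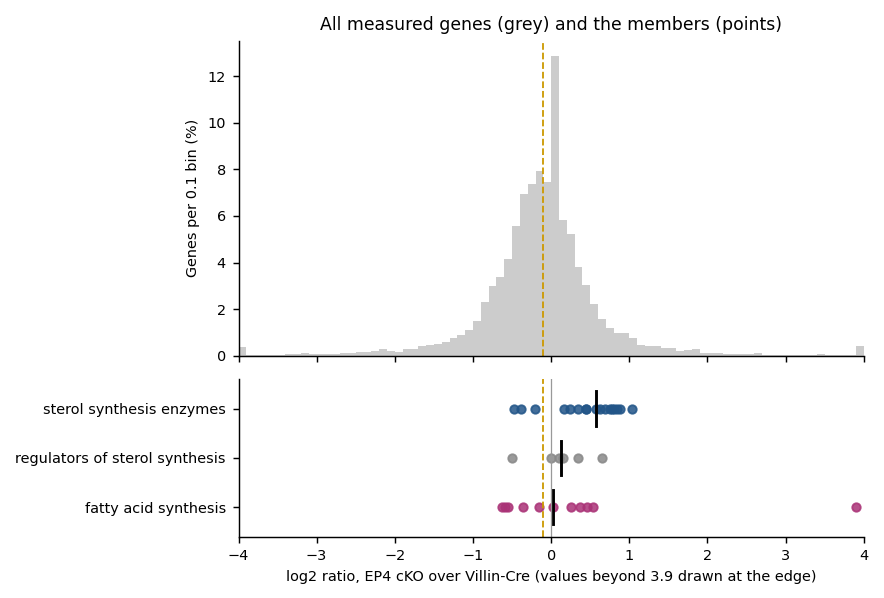
Distribution of the log2 ratio (horizontal axis) over all 14679 genes with a value, as percent of genes per bin (top), and the 34 measured members as points by group (bottom). Black bars are group medians (0.57, 0.12 and 0.03), the dashed line is the median of all genes (-0.10), the tall bin at 0 includes dim genes whose bound was set to 0, values beyond the axis are drawn at its ends, and the sterol enzymes sit mostly to the right of the dashed line.

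The sizes were small. 2 members, Idi1 and Me1, were more than 2-fold higher, beside 4.86% of all genes, and 0 were more than 2-fold lower, beside 7.87%. Past 1.5-fold, 10 members were higher, beside 9.84% of all genes, and 2 were lower, beside 18.6%. Of those 10, 8 were sterol enzymes (47.1% of 17), 1 was a regulator and 1 a fatty acid gene, whereas both lower ones, Acly and Acaca, were fatty acid genes. In RNA of a whole tissue, fewer cells of a type and less RNA per cell cannot be told apart, and this holds for each ratio given here.

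What a single array can show about its own error is limited. The error that the scanner software gives to a spot amounted to 0.20 to 0.24 on the log2 ratio of the members measured on both arrays. 15 members had at least 2 probes well above background on both arrays, and in 13 of them all probes had the same sign. The probes of a member were apart by a median of 0.13 and by at most 0.53. A ratio of less than about 0.20 on the log2 scale is therefore within the error of the scan.

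**Figure D2:**
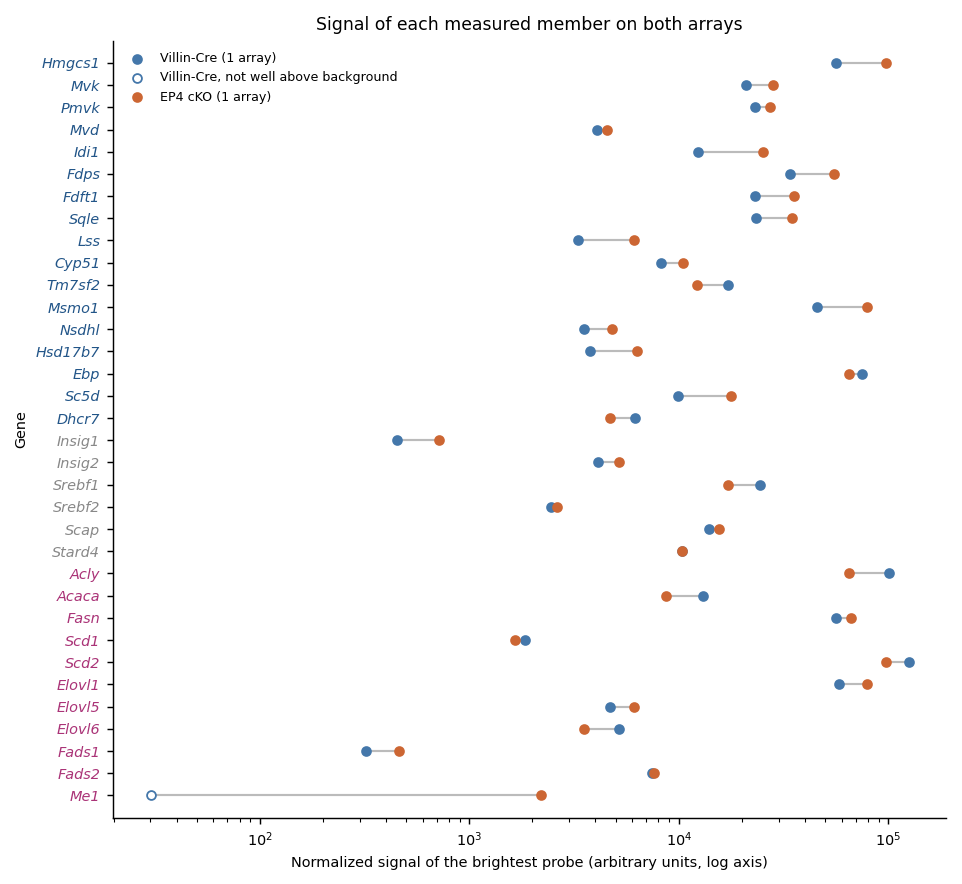
Normalized signal of the brightest probe of the 34 measured members (horizontal log axis, arbitrary units), in blue for the array labelled Villin-Cre and in orange for that labelled EP4 cKO, joined by a line and listed in pathway order, with gene names coloured blue for sterol enzymes, grey for regulators and purple for fatty acid genes. Orange lies to the right of blue for 14 of 17 sterol enzymes, and the open circle marks Me1, which was not well above background on the control array.

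The isoprenoid steps of sterol synthesis were higher at every enzyme measured. All 6 had a log2 ratio above 0, with a median of 0.56. Hmgcs1, the cytosolic HMG-CoA synthase that makes the precursor of mevalonate, had a signal of 56402 in the control and of 97106 in the EP4 cKO sample, a log2 ratio of 0.78 or 1.72-fold. Idi1, the isomerase that makes the reactive isoprenoid unit, had signals of 12407 and 25267 in the same order, a log2 ratio of 1.03 or 2.04-fold. At the brightest probe this was the largest ratio of a sterol enzyme, higher than that of 95.4% of all genes. It lay only just beyond the 2-fold mark. With the mean of all probes Msmo1 had 1.05, against 1.03 for Idi1. Fdps, which joins isoprenoid units to farnesyl diphosphate, followed with 34016 and 54948, a log2 ratio of 0.69.

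The kinases and the decarboxylase between mevalonate and the isoprenoid units differed less. Mvk, the first of the kinases, had signals of 20874 and 28242 (log2 ratio 0.44), and its dimmer probe gave 0.62. Pmvk, which adds the next phosphate, had 23139 and 27298 (0.24). Mvd, the decarboxylase that ends this stretch, had 4053 and 4563 (0.17). The values of Mvd and Pmvk lay near or within the scanner error, so within this stretch the enzymes at both ends, Hmgcs1 and Idi1 with Fdps, stood further from 0 than those between them.

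The enzymes from farnesyl diphosphate to lanosterol were all higher. Fdft1, squalene synthase, had signals of 23038 and 35692, a log2 ratio of 0.63, and its dimmer probe gave 0.66. Sqle, which oxidizes squalene and is a slow step of the pathway, had 23472 and 34796 (0.57). Lss, which closes the ring to lanosterol, had 3308 and 6085 (0.88). Lss was read by 3 probes, all higher, and its dimmer probes gave 0.92 and 1.24.

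After lanosterol the enzymes were divided, 5 higher and 3 lower, with a median of 0.40. Msmo1, which removes methyl groups from the ring, had signals of 45476 and 79219, a log2 ratio of 0.80, and its dimmer probe gave 1.29. Sc5d, the desaturase near the end of the route, had 9935 and 17729 (0.84). Hsd17b7, the ketosterol reductase that works with Msmo1 and Nsdhl, had 3757 and 6336 (0.75), and its dimmer probe gave 0.80. These 3 enzymes were past 1.5-fold.

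Nsdhl, the dehydrogenase of the demethylation complex, had signals of 3543 and 4825, a log2 ratio of 0.45. Cyp51, the lanosterol demethylase, had 8270 and 10519 (0.35), and its dimmer probe gave 0.33. The demethylation enzymes Cyp51, Msmo1, Nsdhl and Hsd17b7 were thus all higher.

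The 3 sterol enzymes with lower signal are a pair of reductases and an isomerase. Tm7sf2, a sterol reductase that acts after Cyp51, had signals of 17094 and 12251, a log2 ratio of -0.48, and its dimmer probe gave -0.63. Dhcr7, the reductase of the last step of one branch, had 6155 and 4686 (-0.39). Ebp, the isomerase that shifts a double bond of the ring, had 74911 and 64900 (-0.21), and its dimmer probe gave -0.26. The value of Ebp lay close to the scanner error, and none of the 3 reached 1.5-fold at its brightest probe.

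**Figure D3:**
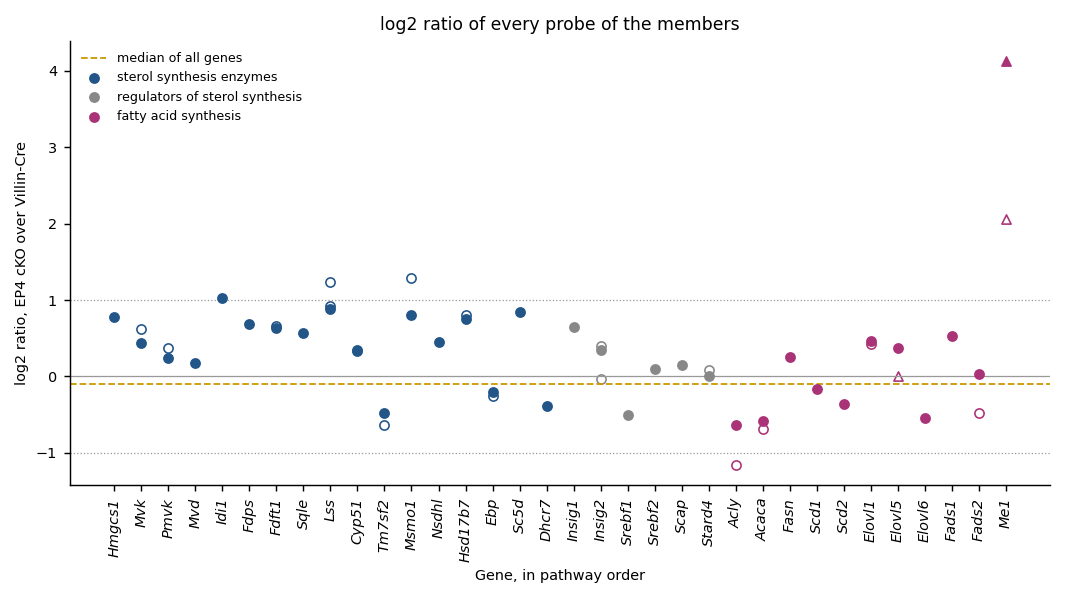
The log2 ratio (vertical axis, EP4 cKO over Villin-Cre as labelled) of every probe with a value of the 34 members, in pathway order, with filled symbols for the brightest probe, open symbols for dimmer probes and triangles for bounds. Dotted lines mark 2-fold, the dashed line is the median of all genes (-0.10), and the probes of a gene mostly sit close together, with Lss and Msmo1 each having a dimmer probe above 2-fold and Acly a dimmer probe below it.

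The regulators of sterol synthesis were divided. Insig1, which retains SCAP in the endoplasmic reticulum and is itself a target of SREBP, had signals of 453 and 713, a log2 ratio of 0.65 or 1.57-fold. Insig2, which has the same retaining role, had 4119 and 5202 (0.34), but its 3 probes ran from -0.04 to 0.40. Srebf1, the gene of SREBP1, had 24329 and 17160 (-0.50 or 1.42-fold lower). Insig1 carried a scanner error of 0.23.

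The factor that drives the sterol genes and its escort hardly differed between the arrays. Srebf2, the gene of SREBP2, had signals of 2450 and 2621, a log2 ratio of 0.10. Scap, the escort of SREBP, had 13967 and 15483 (0.15). Stard4, a carrier of cholesterol within the cell and a known SREBP2 target, had 10331 and 10364 (0.00), and its dimmer probe gave 0.08. All of these were within the scanner error. Of the genes for the proteases of SREBP, which are not members, Mbtps1 had 30390 and 17626 (-0.79). Its 4 probes ran from -1.04 to -0.40. Mbtps2 had 1637 and 1699 (0.05). The signal of an mRNA says nothing on the processing of the SREBP proteins.

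Fatty acid synthesis did not share one direction. The genes that supply carbon and start the chain were lower. Acly, which makes cytosolic acetyl-CoA from citrate for both pathways, had signals of 100505 and 65081, a log2 ratio of -0.63, and its dimmer probe gave -1.16. Acaca, the acetyl-CoA carboxylase that makes malonyl-CoA, had 13023 and 8675 (-0.59), and its dimmer probe gave -0.69. Fasn, the synthase that builds the chain from malonyl-CoA, had 56093 and 66668 (0.25). Of these consecutive steps, Acly was 1.54-fold lower, Acaca lay at the 1.5-fold mark on the same side, and Fasn was 1.19-fold higher.

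The elongases were divided too. Elovl1, which lengthens very long saturated chains, had signals of 58066 and 79659, a log2 ratio of 0.46, and its dimmer probe gave 0.43. Elovl5, which lengthens polyunsaturated chains, had 4716 and 6114 (0.37). Elovl6, which lengthens palmitate, the product of Fasn, had 5190 and 3534 (-0.55). The elongase next to Fasn was therefore lower and the other two were higher.

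The desaturases lay on both sides of 0. Scd2, a stearoyl-CoA desaturase, had signals of 125051 and 97466, a log2 ratio of -0.36. Scd1, its relative, had 1851 and 1653 (-0.16). Fads1, a desaturase of polyunsaturated fatty acids, had 322 and 463 (0.53), with the largest scanner error of the members (0.24). Fads2, which acts ahead of Fads1, had 7457 and 7599 (0.03), and its dimmer probe gave -0.48, so the sign of Fads2 depended on the probe: with the mean of its probes it was -0.23.

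Me1, the cytosolic malic enzyme that supplies NADPH for fatty acid synthesis, was the member that differed most. Its brighter probe had a signal of 30.1 for Villin-Cre, where it was not well above background, and of 2195 for EP4 cKO as labelled. Against the lowest signal of a probe well above background on the control array (125), Me1 was at least 17.5-fold higher. The other probe of Me1 had 30.3 and 522 and was at least 4.16-fold higher. No other member was seen on one array only.

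Because Me1 stood apart, its relatives and the genes beside it on its chromosome were also read, a choice made after its values were seen. The other malic enzymes, which are mitochondrial, did not share the difference: Me2 had signals of 7671 and 7353 (log2 ratio -0.06) and Me3 had 169 and 197 (0.22). The 8 neighbouring genes with a value had log2 ratios of -0.40 to 0.41. Other sources of NADPH were listed beside the pathway, and G6pdx, the entry enzyme of the pentose phosphate pathway, had 14908 and 21193 (0.51), while Pgd, which acts after it, had 27528 and 37907 (0.46). Neither was near the bound of Me1.

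The ratio moved with brightness, so each group was set beside genes of like signal. With the probes seen on both arrays put in 10 bins of mean signal, the median ratio ran from -0.55 in the dimmest bin to -0.04 in the ninth and -0.10 in the brightest. The 1168 genes within 0.5 on the log2 scale of the median signal of the sterol enzymes had a median log2 ratio of -0.03, against 0.57 for the sterol enzymes. For the fatty acid genes the 1711 genes of like signal had -0.09, against 0.03. The shares of genes above 0 were not set beside genes of like signal.

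Genes around the pathways were listed beside the members. Of 29 genes of sterol uptake, storage, export and sensing, 27 had a value, with a median of -0.03, and 13 (48.1%) were above 0, against 36.3% of all genes. Past 2-fold, 2 of them were higher, beside 4.86% of all genes, and 3 were lower, beside 7.87%. The higher ones were Soat2, which esterifies cholesterol (178 and 467, 2.62-fold), and Gramd1b, which moves cholesterol from the plasma membrane to the endoplasmic reticulum (481 and 1294, 2.69-fold). Soat1, the other enzyme that esterifies cholesterol, had 7486 and 3825 (1.96-fold lower), and its 4 probes ran from -0.97 to -0.43. Those more than 2-fold lower were Abca1, which exports cholesterol to lipoproteins (414 and 74.7, 5.55-fold), Abcg5, a part of the transporter that returns sterols to the lumen (10555 and 3029, 3.48-fold), and Cyp27a1, a sterol hydroxylase (468 and 197, 2.37-fold). Abcg8, the partner of Abcg5, had 2312 and 1521, a log2 ratio of -0.60. Abcg1, an exporter to larger lipoproteins, went the other way with 1093 and 1767 (0.69), so the sterol exporters did not share a direction.

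Of 36 further genes of fatty acid and glyceride synthesis, 32 had a value, with a median of 0.02. At the brightest probe 4 were more than 2-fold higher, beside 4.86% of all genes, and 1 was more than 2-fold lower, beside 7.87%. In 3 of the 4, all of glyceride synthesis, only 1 probe was seen on both arrays, so agreement between probes could not be checked. Dgat2, which makes triacylglycerol, had signals of 9510 and 39958 (4.20-fold higher), Mogat2, which makes diacylglycerol from monoacylglycerol, had 329 and 944 (2.87-fold), and Lpin2, a phosphatidate phosphatase, had 1113 and 2500 (2.25-fold). Lpin1, a relative of Lpin2, had 543 and 174 (3.12-fold lower), but its 3 probes ran from -1.64 to -0.10. Scd4, the remaining higher one, had 1.21 at its brightest probe, but its other probe gave -1.15.

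Fatty acid oxidation, the opposite route, was read for comparison. 17 of its 18 genes had a value, with a median of -0.23 against -0.10 for all genes, and 5 (29.4%) were above 0, against 36.3% of all genes. Slc25a20, the carnitine carrier of the inner mitochondrial membrane, had 4091 and 11918 (2.91-fold higher). The median of the oxidation genes thus lay below that of both synthetic pathways.

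**Figure D4:**
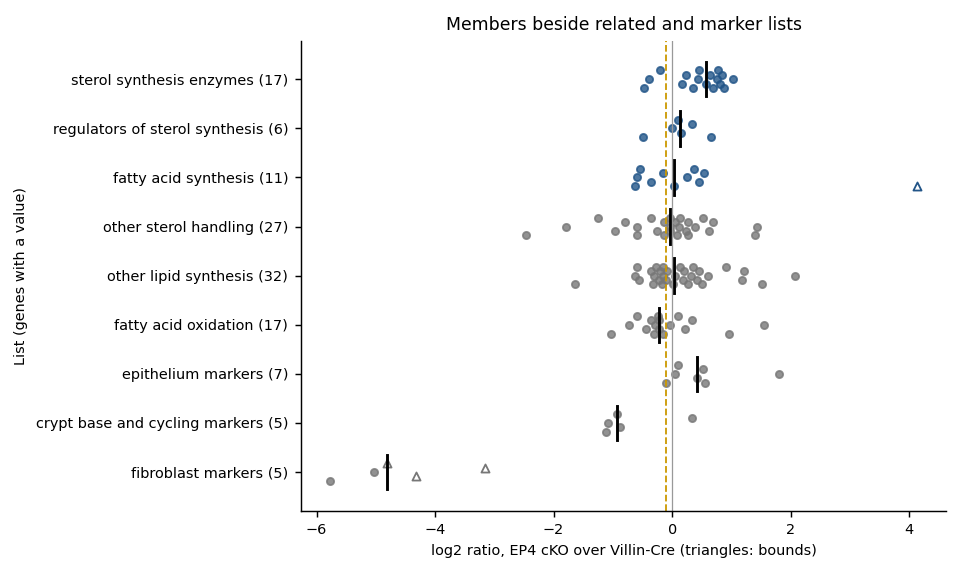
The log2 ratio (horizontal axis) of each gene with a value in the member groups (blue), in related pathway lists and in 3 marker lists (grey), with the number of genes in brackets, black bars for medians, triangles for bounds and a dashed line for the median of all genes (-0.10). The marker lists are epithelium, crypt base and cycling cells, and fibroblasts. The medians are 0.57 for the sterol enzymes, 0.41 for the epithelial, -0.93 for the crypt and -4.81, a bound, for the fibroblast markers.

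Markers of cell types also differed between the arrays, and their part in the member values was not tested. The 7 epithelial markers had a median log2 ratio of 0.41, with summed signals of 1471080 and 2001345, and Krt20, a keratin of mature surface cells, had the largest ratio among them (146575 and 510711, 3.48-fold). The 5 goblet cell markers had a median of 0.64 and summed signals of 1183777 and 1736780, and the 5 surface colonocyte markers had 0.09 with 622826 and 743925. The 5 markers of crypt base and cycling cells had a median of -0.93 with sums of 59245 and 42278, Pcna alone being higher. Of the goblet cell markers, 3 were higher and 2 lower.

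Of the marker lists, the fibroblast list had the median furthest from 0. 5 of 6 fibroblast markers had a value and all 5 were more than 2-fold lower, with a median of -4.81 and summed signals of 12957 and 304. Col1a1, Col3a1 and Lum were not well above background on the EP4 cKO array, so their values and the median are bounds. Pdgfra was above background on neither array. Of 6 smooth muscle markers 5 had a value, with a median of 0.38 and sums of 30148 and 45499. Acta2 gave most of both sums (18006 and 27719), but its probes ran from -0.58 to 0.62. Des was not well above background on the control array, and its bound was set to 0. Cnn1 was 6.62-fold lower (479 and 72.3), and Myh11 was above background on neither array. Of 8 adipocyte markers 3 had a value, and the defining ones Adipoq, Plin1, Fabp4, Cfd and Retn were well above background on neither array. Cidec, a lipid droplet protein on that list, had signals of 107, not well above background, and 4593, at least 36.6-fold higher. Lpl, a lipase on the same list, went the other way with 437 and 34.1, the latter not well above background, at least 7.55-fold lower. Of 7 leukocyte markers 4 had a value (median 0.19, sums of 53325 and 72712). Itgam alone gave most of both sums (49347 and 68597, log2 ratio 0.48). Ptprc had 0.97, Cd3e -0.10 and Cd68 -0.09, and Cd79a, Lyz2 and Adgre1 were well above background on neither array. Of 7 markers of glia and neurons 3 had a value (median -0.82, sums of 4031 and 2027), and of 4 endothelial markers 2 (median -0.05, sums of 1104 and 1134).

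The order of the 3 group medians was the same under the scalings and filters that were tried. Under the 7 other ways of processing, apart from the thresholds, 14 of 17 sterol enzymes stayed above 0 and the number past 1.5-fold ranged from 7 to 11. Across them Idi1 ranged from 0.99 to 1.18, Hmgcs1 from 0.78 to 0.94, Acly from -0.89 to -0.47, and the bound or value of Me1 from 3.06 to 6.19. Scaling to the E1A spike-in spots, a choice made after seeing the data, shifted the median of all genes by 0.97: every member was then above 0, among them the 9 that are below 0 otherwise, and the directions of Tm7sf2, Ebp, Dhcr7, Srebf1, Acly, Acaca, Scd1, Scd2 and Elovl6 flipped. This scaling adds the same amount to every gene seen on both arrays, so it leaves their order as it was.

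**Figure D5:**
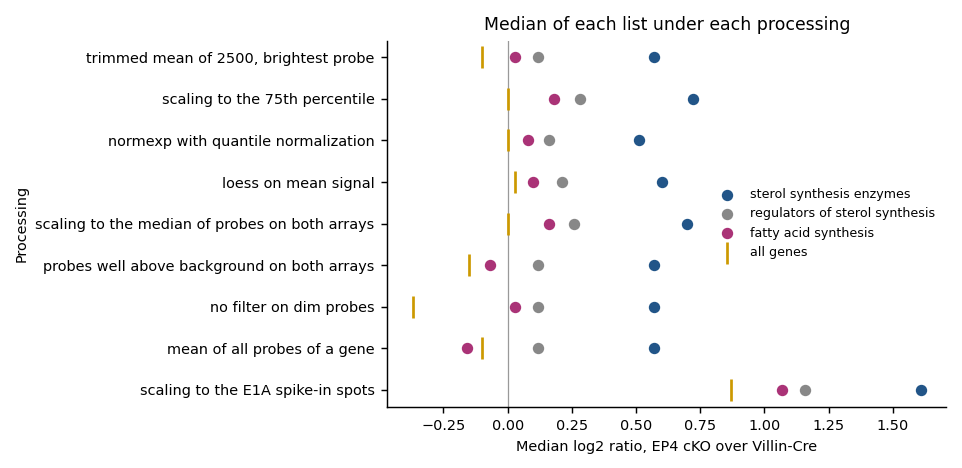
Median log2 ratio (horizontal axis) of sterol enzymes, regulators and fatty acid genes (points) and of all genes (vertical marks) under each way of processing (rows), of which the last was added after seeing the data. The sterol enzymes lie to the right of the other medians in each row.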

How the data were processed

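RNA of 2 colon samples, 1 per genotype and both pooled, was read on 1-colour arrays. The authors deposited spot intensities of Agilent Feature Extraction (version 12.0.3.1 in the file headers, 11.5.1.1 in the submitters' processing notes), with background subtracted by the software and not scaled between arrays. The deposited flags, coded as other values, mark control, outlier, saturated and well-above-background spots.

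Control spots and outlier spots (147 for Villin-Cre, 126 for EP4 cKO) were removed. Intensities were scaled as in the study's methods to a trimmed mean of 2500 (factors 3.45 and 2.68). 25683 (45.4%) and 29177 (51.6%) of 56593 probes were well above background and 0 spots were saturated. A probe needed this on at least 1 array, and where the other array was dim, its signal was raised to that array's lowest signal well above background (125 and 57.8) unless already higher, which gives a bound; bounds not above 1 were set to a log2 ratio of 0. RefSeq accessions named 32989 probes (58.3%) through a GRCm38.p6 gene table. The arrays' grid refers to another assembly, so probe coordinates are not given.

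Alternatives were scaling to the 75th percentile, normexp (offset 50) with quantile normalization, loess (span 0.3), the median of probes seen on both arrays, other filters on dim probes, the mean of a gene's probes, and thresholds of 1.5-fold and 3-fold. Normexp used the median spot signal in place of the mean. The members, gene lists, markers and motifs were chosen with earlier results of these data known. The genes named beside the members are those of a list more than 2-fold apart whose probes share a sign, at most 6 per list. A gene with 1 probe meets this rule without a check. Genes named outside this rule (Soat1, Abcg1, Abcg8, G6pdx, Pgd, Scd4, Mbtps1, Mbtps2, the malic enzymes and some single markers) were chosen after their values were seen. Some single genes of the lists are not reported here. The steps were tested on simulated data. The number of arrays limits the precision. Tools were pandas 2.3.3 and numpy 2.4.6 under Python 3.11.15, statsmodels 0.14.6, limma 3.58.1 under R 4.3.3, and matplotlib 3.10.9 for drawing.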

Additional observations from a re-analysis of the deposited data

How the results depend on the processing

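No paired analysis was possible because each genotype had 1 array, and for the same reason no replicate could be left out. The number of members more than 2-fold higher, 2 as processed here, was 1 with normexp and quantile normalization, 1 with probes well above background on both arrays (Me1 then has no value), 3 with scaling to the 75th percentile, 3 with scaling to the median of probes on both arrays, 4 with the mean of all probes, 25 with E1A scaling (added after seeing the data), 10 at 1.5-fold and 1 at 3-fold. The number more than 2-fold lower, 0 as processed here, was 2 at 1.5-fold. With no filter on dim probes the medians of sterol enzymes and fatty acid genes stood 0.94 and 0.39 above that of all genes, which itself moved by -0.27 because dim probes entered it. Loess moved the median of all genes by 0.13. With the mean of all probes the fatty acid median stood at -0.06 relative to all genes, below it in place of 0.13 above it. Otherwise the medians of sterol enzymes and fatty acid genes, each taken relative to all genes or to one another, moved by less than the scanner error, and the counts past 2-fold did not change. E1A scaling moved the median of all genes by 0.97. Of 237 log2 ratios of members under the alternatives planned, 228 moved by less than the scanner error. Of the members, 1 changed sign under them, Fads2, and 0 sterol enzymes did. Signal over background limits Insig1, Fads1 and Me1 most.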
